A study of Mus musculus with 16 samples.

Results

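The carbonic anhydrase genes were described in epithelial cells of 2 regions of the mouse intestine. All genes in the raw count tables whose symbol was Car1, Car2, Car3, Car4, Car7, Car8, Car9, Car12 or Car13 were taken, and each of these 9 symbols was found once among 46878 genes. The filter on low counts kept 16001 genes, among them 8 of the 9 members, all but Car3. Every mouse was of the strain RedMUC298trTg, which carries a MUC2 reporter tagged with the fluorescent protein mCherry, and was 6 to 8 weeks old with no treatment named. Live epithelial cells were sorted by mCherry from the distal colon (DC) and from section 8 of the small intestine (Si8). The mCherry-positive cells are called goblet cells below. The mCherry-negative cells, labelled colonocytes in DC and enterocytes in Si8, are called other cells, because this sort can hold every epithelial cell type without the reporter. Each of the 4 groups had 4 libraries, named here by the S number of their labels.

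Carbonic anhydrases are zinc enzymes that interconvert carbon dioxide and water with bicarbonate and a proton. In the gut the bicarbonate and protons feed the exchangers that absorb sodium and chloride, and bicarbonate is also secreted, where it takes part in the unfolding of mucus. Some members work in the cytosol (Car1, Car2, Car3, Car7 and Car13), others face the outside of the cell (Car4 on a lipid anchor, Car9 and Car12 through a membrane-spanning segment), and Car8 has lost the enzyme activity while keeping the fold.

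Library totals ran from 11916381 to 18532241 counts in DC and from 30842725 to 41080052 counts in Si8, so a rare transcript was measured more precisely in Si8. Counts for the 37 mitochondrially encoded genes were 0 in every DC library and took from 3.19% to 8.36% of the counts in the Si8 libraries, so that region and the making of the tables cannot be told apart. RNA of goblet cells and of other cells was also purified on different columns, which cannot be told apart from the sort. The labels do not say whether the libraries of a group came from separate animals, so p-values measure the spread between these libraries, which may be technical. The 7 goblet cell markers, Muc2 among them, summed to 266 CPM (counts-per-million, the unit of all levels below) in DC other cells and 37540.0 CPM in DC goblet cells, and to 498 and 183000.0 CPM in the same sorts of Si8. The 5 Paneth cell markers summed to 21950.0 CPM in Si8 goblet cells (range 12490.0 to 34050.0), against 1065 CPM in Si8 other cells, 4.91 CPM in DC goblet cells and 0.467 CPM in DC other cells, where Defa24 and Defa22 were at 0 in both DC sorts. The Si8 mCherry-positive sort thus held Paneth cell transcripts as well as goblet cell transcripts. In bulk samples, fewer cells of a type and less RNA per cell cannot be told apart.

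Each of the 4 groups had its own make-up of carbonic anhydrase transcripts. To compare genes with each other, CPM were divided by the length of a gene's merged exons in kilobases (kb), and a member's share is its part of the sum of CPM per kb over the 9 members. The cytosolic Car1 took 51.05% ± 3.55 (SD, n = 4) in DC other cells, followed by the surface enzyme Car4 with 34.3% ± 2.36 and Car2 with 12.4% ± 1.31. In DC goblet cells Car2 took 66.2% ± 2.92, Car1 18.9% ± 2.08 and Car4 5.94% ± 1.84.

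Car4 led in Si8 other cells with 64.6% ± 4.49 (SD, n = 4), ahead of Car13 with 15.1% ± 2.55 and Car9 with 11.7% ± 0.804. In Si8 goblet cells the member without enzyme activity, Car8, took 39.8% ± 2.79, and Car4, Car9 and Car13 took 24.7% ± 4.21, 15.8% ± 0.501 and 15.2% ± 2.47. Which member leads depended on the length used in 1 of the 4 groups: with the longest coding transcript as the length, Car4 took 42.45% and Car1 42.2% in DC other cells, and without length scaling they took 40.2% and 38.1%. With the longest coding transcript Car8 still led in Si8 goblet cells, but by 33.1% to 32.1% for Car4.

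**Figure D1:**
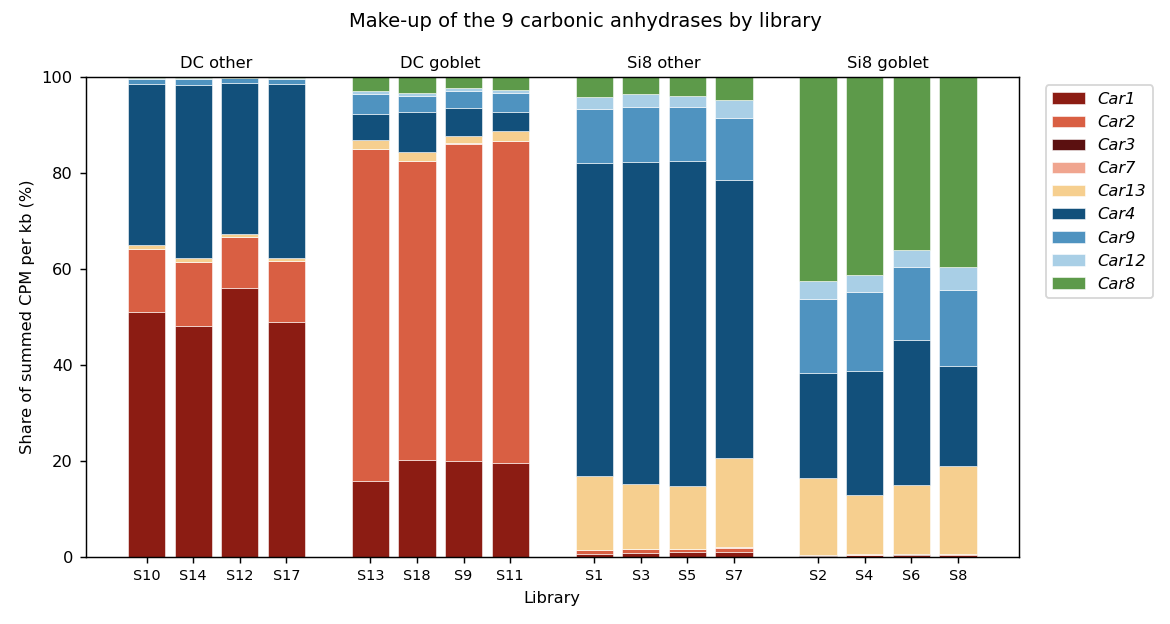
Share of each carbonic anhydrase in the summed CPM per kb of the 9 members, as percent, with 1 stacked bar for each of the 16 libraries, grouped by region and sort. The bars of DC other cells are mostly Car1 and Car4, those of DC goblet cells mostly Car2 (mean 66.2%), those of Si8 other cells mostly Car4 (mean 64.6%), and Car8 (mean 39.8%) is the largest block in each bar of Si8 goblet cells.

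By role, the cytosolic members together took 64.25% ± 2.45 (SD, n = 4) of the sum in other cells and 86.9% ± 1.87 in goblet cells of DC, and 16.8% ± 2.67 and 15.75% ± 2.51 in the same sorts of Si8. Members with the enzyme outside the cell took 35.7% ± 2.43, 10.3% ± 1.535, 79.2% ± 3.18 and 44.4% ± 3.71 in the same order. The colon sorts were thus mostly cytosolic and the Si8 other cells mostly surface-bound.

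The summed level was 2120.0 ± 101 CPM per kb for DC other cells (SD, n = 4) and 231 ± 17.3 for the goblet cells there, and 147 ± 18.4 and 75.8 ± 7.48 for the same sorts of Si8. Libraries did not overlap between any pair of these groups. The other cells were 9.18-fold above goblet cells in DC and 1.95-fold in Si8. Without Car8 these ratios were 9.43 and 3.11, so Car8 moved the ratio in Si8 and hardly that in DC.

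**Figure D2:**
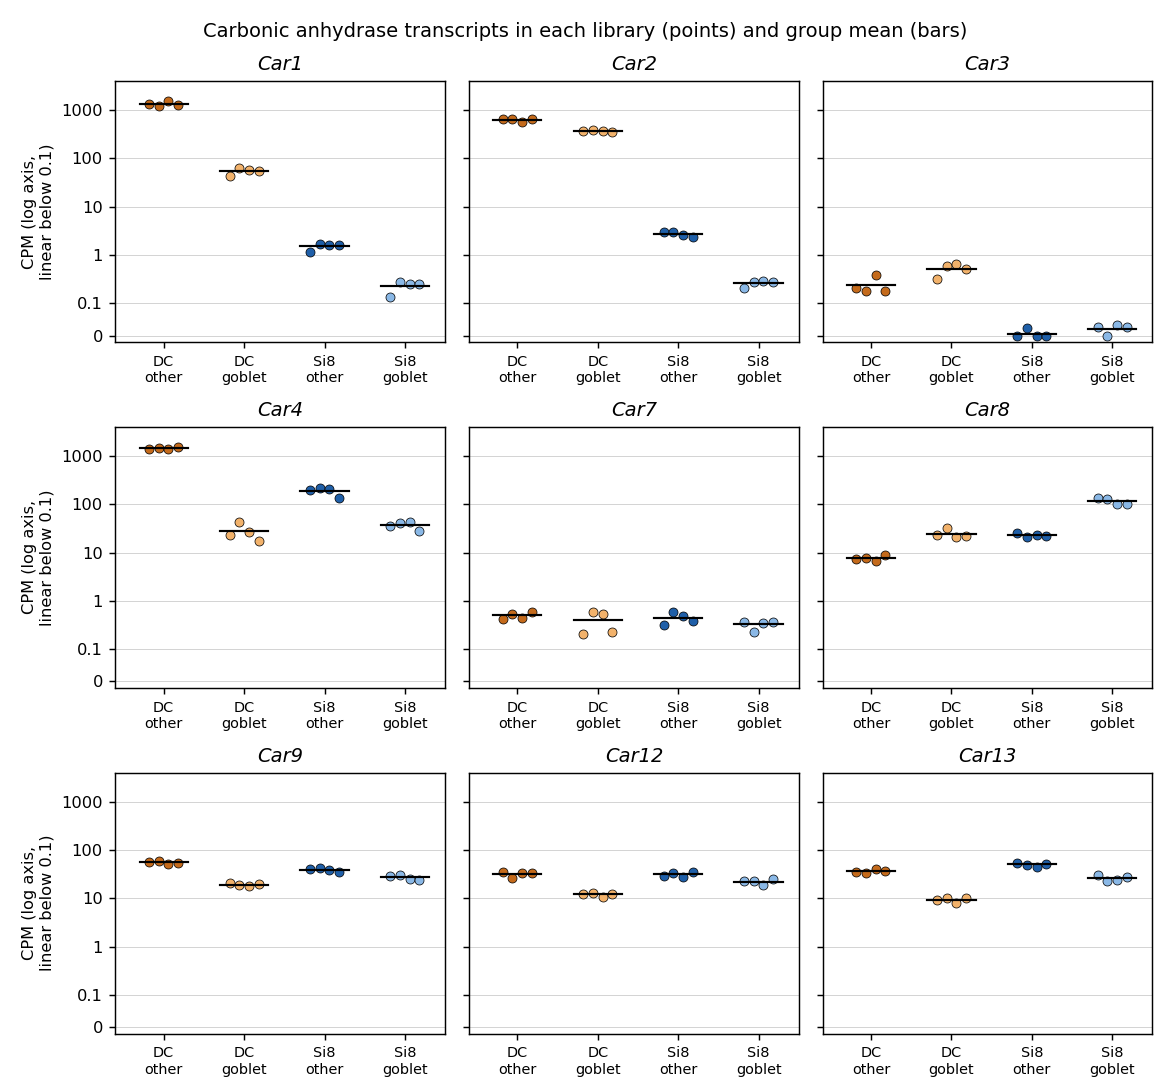
CPM of each of the 9 carbonic anhydrases in the 16 libraries on a log axis that is linear below 0.1 CPM, with 1 point for each library and a bar at the group mean. Car1 and Car2 are near or under 3 CPM in every Si8 library, Car4 is highest in DC other cells, and Car8 runs the opposite way with its highest points in Si8 goblet cells.

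Of the 9 members, 6 were lower and 1, Car8, was higher in DC goblet cells than in DC other cells, with Car7 not called and Car3 not tested. Among all 16001 tested genes, 55.7% were called in that comparison (27.9% lower and 27.8% higher). The same counts held between the sorts of Si8, with 6 members lower, 1 higher and 1 not called, where 64.9% of tested genes were called (31.8% lower and 33.1% higher). A gene was called at an adjusted p under 0.05 in edgeR's quasi-likelihood test with Benjamini-Hochberg adjustment over all tested genes, and all adjusted p-values below come from it. Log2 fold changes are given ± their standard error. Groups whose libraries do not overlap were common among all tested genes. Between the sorts this held for 53.8% of them in DC and 53.9% in Si8. Between regions it held for 59.6% in other cells and 57.2% in goblet cells.

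Among the cytosolic members, Car1 had the largest region difference in other cells and Car2 in goblet cells. Car1 (ENSMUSG00000027556.15, chromosome 3, 14766216 to 14808368, minus strand, mm10) encodes an abundant cytosolic enzyme of colon epithelium and red blood cells. It stood at 1332, 1204, 1573 and 1304 CPM in the DC other libraries S10, S14, S12 and S17. In DC goblet cells S13, S18, S9 and S11 it stood at 42.5, 64.5, 57.2 and 54.3 CPM. All DC other libraries lay far above all DC goblet libraries, and the lowest DC goblet library lay above every Si8 library. The Si8 other libraries S1, S3, S5 and S7 held 1.18, 1.68, 1.66 and 1.59 CPM, and the Si8 goblet libraries S2, S4, S6 and S8 held 0.134, 0.282, 0.256 and 0.251 CPM, the last from 5 to 11 counts a library.

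Car1 fell in goblet cells, with log2 fold changes of −4.63 ± 0.13 in DC (24.8-fold, edgeR adjusted p = 1.21e-15) and −2.72 ± 0.25 in Si8 (6.57-fold, edgeR adjusted p = 1.26e-08). Between regions it was 9.78 ± 0.18 log2 units higher in DC among other cells and 7.86 ± 0.19 higher among goblet cells (edgeR adjusted p = 2.53e-19 and 2.96e-17). Its order was DC other, DC goblet, Si8 other, Si8 goblet, with no overlap between neighbours. Since red blood cells hold Car1, haemoglobin genes were set beside it, and Hbb-bt, Hba-a1 and Hba-a2 were at 0 in all DC other libraries, where Car1 was highest.

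Of the 6 members called lower in DC goblet cells, Car2 fell least. Car2 (ENSMUSG00000027562.12, chromosome 3, 14886273 to 14900770, plus strand) encodes the widely used, fast cytosolic enzyme. It stood at 669, 651, 574 and 650.2 CPM in the DC other libraries S10, S14, S12 and S17 and at 362, 385, 370.0 and 360.5 CPM in the DC goblet libraries S13, S18, S9 and S11. The 2 sorts did not overlap, but goblet cells held 58.1% of the other cells' mean, against 4.04% for Car1 and 1.92% for Car4. In Si8 it stood at 2.99, 2.94, 2.60 and 2.33 CPM in other cells S1, S3, S5 and S7 and at 0.214, 0.282, 0.287 and 0.279 CPM in goblet cells S2, S4, S6 and S8. Every Si8 library lay far below every DC library.

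Car2 fell in goblet cells, with log2 fold changes of −0.78 ± 0.07 in DC (1.72-fold, edgeR adjusted p = 2.83e-08) and −3.34 ± 0.14 in Si8 (10.1-fold, edgeR adjusted p = 3.32e-13). The region difference was 7.87 ± 0.10 log2 units in other cells and 10.42 ± 0.13 in goblet cells, higher in DC both times (edgeR adjusted p = 4.65e-21 and 1.78e-21). Per kb, Car1 exceeded Car2 4.17 ± 0.78-fold in DC other cells (SD, n = 4), whereas Car2 exceeded Car1 3.55 ± 0.575-fold in DC goblet cells. The ratio turned over in every library: Car1 to Car2 ranged from 3.59 to 5.32 in other cells and from 0.228 to 0.325 in goblet cells.

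Car13, the cytosolic member with the highest level in Si8, followed another order. Car13 (ENSMUSG00000027555.8, chromosome 3, 14641727 to 14663002, plus strand) stood at 54.5, 50.3, 45.5 and 51.7 CPM in the Si8 other libraries S1, S3, S5 and S7 and at 36.0, 34.3, 41.3 and 37.0 CPM in the DC other libraries S10, S14, S12 and S17. The Si8 goblet libraries S2, S4, S6 and S8 held 30.3, 23.1, 24.1 and 27.8 CPM, and the DC goblet libraries S13, S18, S9 and S11 held 9.42, 10.2, 7.88 and 10.04 CPM. No neighbours in this order overlapped. Car13 fell in goblet cells, with log2 fold changes of −1.99 ± 0.11 in DC and −0.94 ± 0.10 in Si8 (edgeR adjusted p = 7.93e-12 and 8.7e-08). It was lower in DC than in Si8, with log2 differences of −0.44 ± 0.10 in other cells and −1.49 ± 0.11 in goblet cells (edgeR adjusted p = 0.000554 and 3.99e-10).

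The remaining cytosolic members were near the limit of detection. Car3 (ENSMUSG00000027559.5, chromosome 3, 14863512 to 14872523, plus strand) encodes a slow enzyme known from muscle and fat. It was counted 4, 3, 6 and 3 times in the DC other libraries S10, S14, S12 and S17, 6, 8, 12 and 11 times in DC goblet cells S13, S18, S9 and S11, 1 time in all Si8 other libraries together and 3 times in all Si8 goblet libraries together. The DC sorts overlapped at 6 counts on this count scale. On depth, DC goblet cells were 2.16 times DC other cells (95% exact interval 1.17 to 4.16, counting error only), and with no filter on low counts edgeR gave a log2 fold change of 1.10 ± 0.53 with an adjusted p of 0.134. With single DC libraries left out Car3 passed the filter, and it was called in 2 of 8 cases: without S12 (1.37, edgeR adjusted p = 0.0198) and without S13 (1.29, edgeR adjusted p = 0.0172).

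Car3 was higher in DC than in Si8 with the filter off, by 4.25 ± 0.93 log2 units in other cells and 4.27 ± 0.68 in goblet cells (edgeR adjusted p = 2.52e-05 and 4.1e-09). The ratio of DC to Si8 goblet cells on depth was 24.4 (95% exact interval 7.73 to 124, from 37 and 3 counts). Among the 6 fat cell markers, Adipoq, Plin1, Fabp4, Cfd and Lep were at 0 in DC other cells, and Cidec made up the whole sum there, 4.58 CPM (range 4.16 to 5.31), against a sum of 0.357 CPM (range 0.164 to 0.509) in DC goblet cells. In Si8 the list summed to 19.55 CPM (range 11.4 to 28.3) in other cells, with Adipoq and Cfd at 0, and to 1.27 CPM (range 0.921 to 1.63) in goblet cells. Of the 5 muscle markers, Acta1 made up 137 of the 137 CPM in DC goblet cells and 164 of the 165.5 CPM in DC other cells. The means of Des and Ckm were 0.221 and 0.0710 CPM in DC goblet cells against 0.0282 and 0 CPM in DC other cells. The means of Acta1, Myh11 and Actg2 were lower in DC goblet cells. The part of such cells in the Car3 counts was not tested.

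Car7 (ENSMUSG00000031883.13, chromosome 8, 104534689 to 104550343, plus strand), a cytosolic enzyme best known from neurons, lay between 0.209 and 0.604 CPM in every library. Group means ran from 0.330 ± 0.0668 CPM in Si8 goblet cells to 0.503 ± 0.0827 CPM in DC other cells (SD, n = 4). All neighbouring groups overlapped, and Car7 was not called in any of the 5 tests (edgeR adjusted p from 0.192 to 0.944). With 4 to 24 counts a library, a change of the size seen for Car9 or Car12 between the Si8 sorts was not detectable: the standard errors were 0.31 to 0.48 log2 units.

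Car4 changed more between the sorts of DC than any other member. Car4 (ENSMUSG00000000805.18, chromosome 11, 84957786 to 84966044, plus strand) encodes an enzyme held on the outer face of the apical membrane by a lipid anchor. It stood at 1378, 1426, 1386 and 1521 CPM in the DC other libraries S10, S14, S12 and S17. In the DC goblet libraries S13, S18, S9 and S11 it stood at 22.6, 42.35, 27.0 and 17.7 CPM. The DC sorts were far apart, and S18 was the highest DC goblet library for Car4 and for Car1. The Si8 other libraries S1, S3, S5 and S7 held 198, 215, 203 and 138 CPM and the Si8 goblet libraries S2, S4, S6 and S8 held 35.5, 41.5, 43.1 and 27.35 CPM. Goblet cells of the 2 regions overlapped.

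Car4 fell in goblet cells, with log2 fold changes of −5.71 ± 0.25 in DC (52.5-fold, edgeR adjusted p = 5.02e-12) and −2.35 ± 0.21 in Si8 (5.11-fold, edgeR adjusted p = 5.65e-08). Among other cells it was 2.92 ± 0.22 log2 units higher in DC than in Si8 (7.58-fold, edgeR adjusted p = 2.85e-09). Among goblet cells the difference of −0.44 ± 0.21 was not called (edgeR adjusted p = 0.0836). That call rested on single libraries: without S18 the difference was −0.72 with an edgeR adjusted p of 0.00164, without S8 it was −0.54 with an edgeR adjusted p of 0.0381, and DESeq2 on all libraries gave −0.45 with an adjusted p of 0.0467.

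In DC, genes used as markers of the colon surface fell in goblet cells with Car4 and Car1. The 6 surface colonocyte markers (Krt20, Slc26a3, Aqp8, Emp1, Ceacam20 and Slc9a3) all fell in DC goblet cells, to between 1.59% and 6.68% of their mean in other cells (median 2.43%), and Car4 at 1.92% and Car1 at 4.04% lay within that range. Car13 at 25.3%, Car9 at 34.8%, Car12 at 38.5% and Car2 at 58.1% lay above it. The summed level of the markers was 5607 CPM in DC other cells (range 5217 to 6000.0) and 175 CPM in DC goblet cells, with the highest value, 217 CPM, in S18 and the others between 147 and 175 CPM. In Si8 the same markers summed to 3989 CPM in other cells (range 2983 to 4605) and 1353 CPM in goblet cells (range 984 to 1895). Between the regions' other cells 4 were higher in DC and 2, Krt20 and Ceacam20, were higher in Si8. The part of a few surface cells within the goblet sort in the Car4 and Car1 levels was not tested.

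In Si8, Car4 in goblet cells was at 19.6% of other cells, Car13 at 52.1%, Car9 at 69.8% and Car12 at 71.2%, while the 6 ileal enterocyte markers, such as Apoa1 and Fabp6, ranged from 5.07% to 55.7% (median 12.4%), and all but Fabp1 lay between 5.07% and 16.6%. The summed level of these markers was 13360.0 CPM in Si8 other cells (range 8910.0 to 17310.0) and 1630.0 CPM in Si8 goblet cells (range 1069 to 2031). In DC it was 33.4 CPM in other cells (range 27.3 to 35.9) and 3.22 CPM in goblet cells (range 2.77 to 3.60). Car1 at 15.1% and Car2 at 9.77% lay among the markers, Car4 and Car13 lay between the next highest marker and Fabp1, and Car9 and Car12 lay above all of them.

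The other surface enzymes, Car9 and Car12, were expressed in all 4 groups, between 10.5 and 59.3 CPM in a library. Car9 (ENSMUSG00000028463.14, chromosome 4, 43506966 to 43513729, plus strand) is a membrane-spanning enzyme best known as a target of the hypoxia response. It stood at 56.0, 59.3, 52.1 and 54.4 CPM in the DC other libraries S10, S14, S12 and S17 and at 20.4, 19.0, 18.4 and 19.5 CPM in the DC goblet libraries S13, S18, S9 and S11. In Si8 it stood at 39.6, 43.3, 39.3 and 35.8 CPM in other cells S1, S3, S5 and S7 and at 29.4, 30.9, 25.7 and 24.4 CPM in goblet cells S2, S4, S6 and S8. The order was DC other, Si8 other, Si8 goblet, DC goblet, and no neighbours overlapped.

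Car9 fell in goblet cells, with log2 fold changes of −1.52 ± 0.09 in DC and −0.52 ± 0.08 in Si8 (edgeR adjusted p = 1.83e-11 and 2.44e-05). Its region difference changed sign between the sorts: 0.49 ± 0.08 in other cells, higher in DC, and −0.51 ± 0.09 in goblet cells, lower in DC (edgeR adjusted p = 3.85e-05 and 4.28e-05). Car9 shares 214 exon bases with the antisense gene Gm12454, which had 510, 526, 799 and 620 counts summed over DC other, DC goblet, Si8 other and Si8 goblet cells. Car9 itself had 3769, 1406, 5176 and 3984. The library kit keeps strand, but the strand setting of the counting is not given in the sources used here, so reads of the pair cannot be told apart.

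Promoter sequence is shown for Car9, because it is known as a hypoxia target, and for Car4, because it fell furthest in DC goblet cells. The sequences are from RefSeq (GRCm38.p6), as the 250 bases before the annotated start. That table held Car4, Car7, Car9 and Car12, and Car1, Car2, Car3, Car8 and Car13 were not matched. On both strands 3 motifs were searched. The core of the hypoxia response element, ACGTG, was found in 16.6% of 32851 such windows, the TATA box sequence TATAAA in 12.4%, and AGATAA, bound by factors of the GATA family, in 9.99%. No motif contains another, but TATAAA and AGATAA share the letters ATAA. The Car9 window held 1 match, to ACGTG on the opposite strand (CACGT, in capitals in the 30 bases at chr4:43506996-43507025, plus strand), which starts 18 bases before the RefSeq start. The GENCODE start of Car9 given above lies 60 bases before the end of that window, so by that annotation these 30 bases are within the gene. The Car4 window (chr11:84957504-84957753, plus strand) held none of the 3 and so has no capitals, Car12 held none, and of the 3 Car7 windows 1 held AGATAA on the opposite strand.
Car9: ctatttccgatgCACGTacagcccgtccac
Car4: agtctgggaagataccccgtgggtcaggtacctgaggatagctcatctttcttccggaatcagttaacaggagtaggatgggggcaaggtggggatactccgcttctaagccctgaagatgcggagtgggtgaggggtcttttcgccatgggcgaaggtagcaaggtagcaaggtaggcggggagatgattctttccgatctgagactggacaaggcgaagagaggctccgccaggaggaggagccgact
A match is a description of letters and does not show that a factor binds there.

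The 10 hypoxia target genes set beside Car9 fell in most cases. In DC goblet cells 8 of 10 were lower and 2 higher (median log2 fold change −1.25, all tested genes 0.03), and in Si8 7 were lower, 2 higher and 1 not called (median −1.06, all tested genes 0.03). Among all tested genes 27.9% were lower and 27.8% higher in DC goblet cells, and 31.8% lower and 33.1% higher in Si8 goblet cells. Ldha, the enzyme that makes lactate, fell with Car9, by −1.42 ± 0.09 in DC and −0.88 ± 0.08 in Si8 (edgeR adjusted p = 3.24e-11 and 2.66e-08). Ndrg1 rose by 2.01 ± 0.10 in DC and 1.73 ± 0.10 in Si8 (edgeR adjusted p = 4.02e-12 and 3.45e-11). Slc2a1, a glucose transporter, fell in DC with −1.07 ± 0.16 and rose in Si8 with 2.32 ± 0.16 (edgeR adjusted p = 1.18e-05 and 1.05e-09), and Pdk1 rose by 0.31 ± 0.11 in DC (edgeR adjusted p = 0.0208). These 4 genes were picked for mention after their values were seen.

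Car12 (ENSMUSG00000032373.15, chromosome 9, 66713686 to 66766845, plus strand) is the other membrane-spanning enzyme. It stood at 34.4, 25.9, 32.8 and 33.2 CPM in the DC other libraries S10, S14, S12 and S17 and at 12.6, 13.01, 10.5 and 12.5 CPM in the DC goblet libraries S13, S18, S9 and S11. In Si8 it stood at 29.3, 33.8, 27.4 and 34.5 CPM in other cells S1, S3, S5 and S7 and at 22.5, 22.6, 19.0 and 24.9 CPM in goblet cells S2, S4, S6 and S8. The other cells of the 2 regions overlapped, and goblet cells lay below them in both regions.

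Car12 fell in goblet cells, with log2 fold changes of −1.38 ± 0.12 in DC and −0.49 ± 0.11 in Si8 (edgeR adjusted p = 4.15e-09 and 0.00056). The difference between the regions' other cells, 0.01 ± 0.11, was not called (edgeR adjusted p = 0.912). Among goblet cells Car12 was lower in DC, by −0.87 ± 0.11 (edgeR adjusted p = 1.76e-06). Per kb, Car9 exceeded Car12 in all groups, by 4.12 ± 0.601-fold in Si8 goblet cells to 5.89 ± 1.11-fold in DC other cells (SD, n = 4).

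Car8 was the only one of the 8 tested members called higher in goblet cells, and it was so in both regions. Car8 (ENSMUSG00000041261.9, chromosome 4, 8143362 to 8239041, minus strand) encodes a protein without carbonic anhydrase activity that binds the inositol trisphosphate receptor. It stood at 7.46, 7.84, 6.61 and 8.94 CPM in the DC other libraries S10, S14, S12 and S17 and at 23.55, 32.35, 20.7 and 22.4 CPM in the DC goblet libraries S13, S18, S9 and S11. In Si8 it stood at 24.9, 21.3, 22.65 and 22.1 CPM in other cells S1, S3, S5 and S7 and at 135, 129, 101 and 101 CPM in goblet cells S2, S4, S6 and S8. Si8 goblet cells lay above all others, DC goblet cells and Si8 other cells overlapped, and DC other cells were lowest.

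Car8 rose in goblet cells by 1.67 ± 0.14 on the log2 scale in DC (3.19-fold, edgeR adjusted p = 5.52e-09) and by 2.36 ± 0.13 in Si8 (5.14-fold, edgeR adjusted p = 8.82e-12). It was lower in DC than in Si8, with log2 differences of −1.56 ± 0.14 in other cells and −2.24 ± 0.13 in goblet cells (edgeR adjusted p = 7.8e-09 and 1.57e-11). The 5 Paneth cell markers, like Car8, summed higher in goblet cells than in other cells of both regions. Their part in the Car8 level was not tested. In Si8 goblet cells all 5 rose, and their sum in S2, S4, S6 and S8 was 12490.0, 23660.0, 17610.0 and 34050.0 CPM. Among these libraries Car8 was highest in S2 (135 CPM), where the Paneth sum was lowest. The sum of the goblet cell markers was also lowest in S2 (121100.0 CPM). That goblet sum was highest in S6 (281900.0 CPM), where Car8 stood at 101 CPM. The order of so few libraries was not tested. In DC goblet cells Lyz1, Mmp7 and Itln1 rose 26.9-fold, 5.65-fold and 8.56-fold (edgeR adjusted p = 0.00357, 0.0273 and 0.00127). Defa24 and Defa22 were at 0, and the Paneth sum went from 0.467 CPM (range 0.194 to 0.832) to 4.91 CPM (range 3.01 to 5.965).

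Among markers of further cell types, all 8 enteroendocrine markers fell in goblet cells of both regions, from a summed 485 (range 422 to 553) to 74.7 CPM (range 65.5 to 92.4) in DC and from 378 (range 327 to 461) to 110.1 CPM (range 81.2 to 153) in Si8, so the other cells held more transcripts of that type. The 7 tuft cell markers summed to 40.9 (range 31.7 to 62.8) and 33.1 CPM (range 30.5 to 39.6) in DC and to 109 (range 87.7 to 128) and 74.3 CPM (range 57.4 to 94.6) in Si8, and of 6 tested 1 fell in DC goblet cells and 3 in Si8 goblet cells, with none higher. Their part in the members' changes was not tested.

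**Figure D3:**
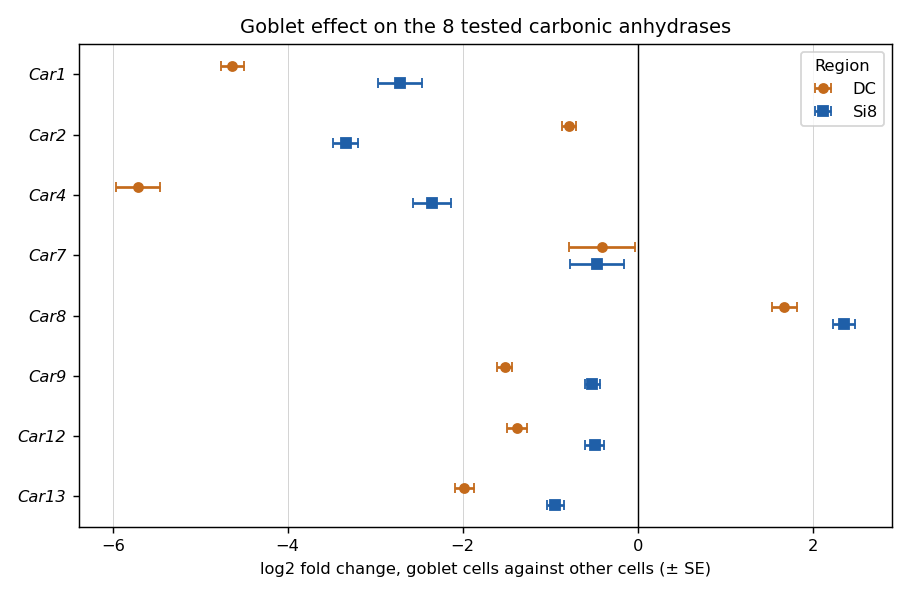
Log2 fold change of goblet cells against other cells in DC and in Si8 for the 8 tested carbonic anhydrases, with standard errors. Car8 lies above 0 in both regions, Car1, Car2, Car4, Car9, Car12 and Car13 lie below 0 in both, and only Car2 among these 6 fell further in Si8 than in DC.

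The size of the goblet cell difference depended on the region for 7 of the 9 members. The test of the difference itself was called for 32.1% of all tested genes, 15.6% with a value above 0 and 16.5% below. Car4 had the largest value among the members: its log2 fold change in DC was lower than in Si8 by −3.36 ± 0.30 (edgeR adjusted p = 2.27e-07). For Car1 the value was −1.92 ± 0.34 (edgeR adjusted p = 0.000201). Both the surface enzyme Car4 and the cytosolic Car1 thus fell further in DC.

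Car13, Car9 and Car12 differed by similar amounts, −1.05 ± 0.14, −1.002 ± 0.12 and −0.89 ± 0.16 (edgeR adjusted p = 1.36e-05, 2.65e-06 and 0.000192). Car2 went the other way with 2.55 ± 0.17 (edgeR adjusted p = 8.98e-10): a shallow fall in DC and a deep fall in Si8, where its level was low in both sorts. Car8 rose less in DC than in Si8 by −0.69 ± 0.19 (edgeR adjusted p = 0.00854), and Car7 had 0.06 ± 0.48 (edgeR adjusted p = 0.944).

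Between regions, Car1 and Car2 were higher in DC and Car8 and Car13 higher in Si8, whichever sort was compared. In other cells 4 members were higher in DC (Car1, Car2, Car4 and Car9) and 2 lower (Car8 and Car13), where 66.9% of tested genes were called, 33.3% higher and 33.6% lower. In goblet cells 2 were higher in DC (Car1 and Car2) and 4 lower (Car8, Car9, Car12 and Car13), where 62.1% were called, 30.6% higher and 31.5% lower. The 2 region comparisons share no libraries with each other, but each shares its libraries with the comparisons of the sorts.

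Car13, Car1, Car3 and Car2 lie within 259.0 kb of chromosome 3 (14641727 to 14900770, mm10), Car1 on the minus strand and the others on the plus strand, with pseudogenes but no other protein-coding gene between them. The run held genes of very different level: in DC other cells 37.2 CPM for Car13, 1354 for Car1, 0.240 for Car3 and 636 for Car2. Its members also went opposite ways between regions, Car1 and Car2 up in DC and Car13 down. Of the 24 genes annotated within 500 kb of the run, members included, 6 were tested, and 3 of these were not members.

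The non-members Lrrcc1, E2f5 and 1810022K09Rik differed little beside Car1 and Car2. E2f5, a transcription factor of the cell cycle, fell in goblet cells, by −0.48 ± 0.08 in DC and −0.32 in Si8 (edgeR adjusted p = 3.56e-05 and 0.00139). 1810022K09Rik rose in Si8 goblet cells by 0.48 (edgeR adjusted p = 0.00247). Between the regions' other cells all 3 were higher in DC, by 0.79 for Lrrcc1, 0.55 for E2f5 and 0.55 for 1810022K09Rik (edgeR adjusted p = 5e-07, 3.56e-06 and 0.000913).

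**Figure D4:**
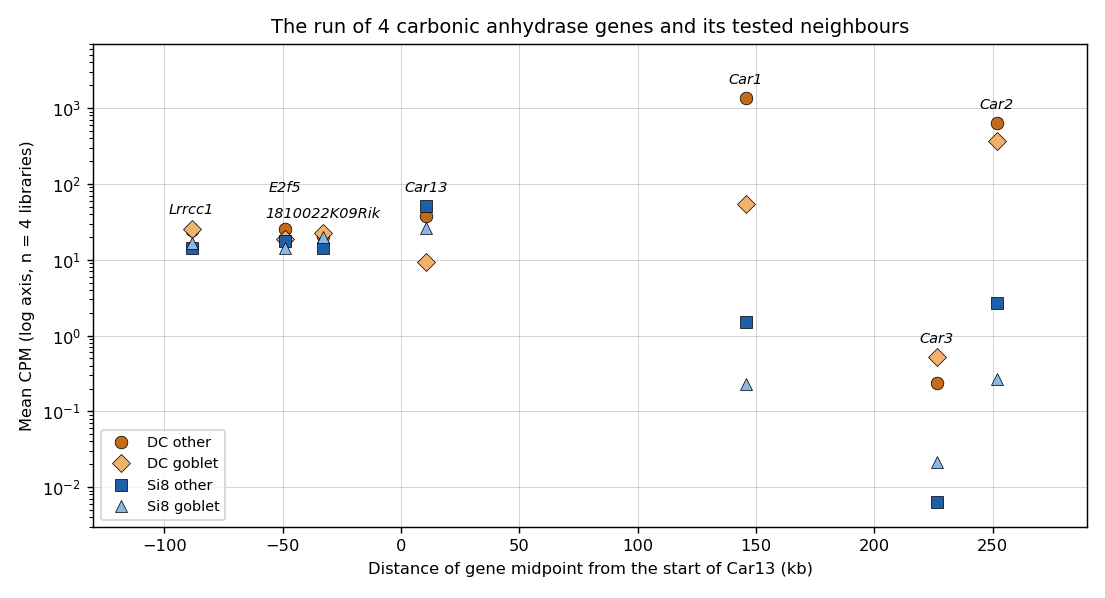
Mean CPM (log axis) of the tested genes and of Car3 along chromosome 3, by distance in kb from the start of Car13, for the 4 groups. Car1 and Car2 stand at 1354 and 636 CPM in DC other cells and under 3 CPM in Si8, while Lrrcc1, E2f5 and 1810022K09Rik lie between 14.1 and 25.7 CPM in all 4 groups.

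Across the 16 libraries, which include the differences between groups, Pearson's r of log2(CPM + 0.5) was 0.94 for Car1 and Car2, 0.96 for Car12 and Car13, 0.94 for Car4 and Car9, and −0.85 for Car1 and Car8. These values describe shared group patterns, since the libraries of a group share sort, region and column. Among tested non-members of at least 10 CPM in their highest group, those most like Car1 were Cyp2c55 and 2610528A11Rik (r = 0.995 each) and Fndc5 (r = 0.993). Cyp2c55 averaged 853 and 26.6 CPM in other and goblet cells of DC and 1.53 and 0.213 CPM in those of Si8. Those most like Car2 were Lrrk2, Gatm and Mfsd4 (r = 0.996, 0.996 and 0.995), and Lrrk2 averaged 41.6, 38.9, 1.016 and 0.116 CPM in the same order.

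For Car4 the most alike genes were Tmem37, 4833407H14Rik and Mpzl3 (r = 0.990, 0.987 and 0.9865). Car9 was most like Slc40a1, an iron exporter, with r = 0.984, then Mal and Gss. Car12 was most like Ptprg (r = 0.973), then Lad1 and Bmp3, and Car13 most like Pvrl3 (r = 0.987), then Mall and Nlrp6. Car8 was most like Ntn4 (r = 0.979), Bmp7 and Rgs2, all of them highest in Si8 goblet cells, at 47.1, 15.0 and 244 CPM.

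The 7 further carbonic anhydrases of the mouse were rare in all groups. Car5a, Car6, Car10 and Car14 did not pass the filter, and none had more than 14 counts in a group. Car5b, a mitochondrial enzyme, averaged 0.724 ± 0.126 CPM in DC other cells and 1.143 ± 0.214 in DC goblet cells (SD, n = 4), and 0.0675 ± 0.0405 and 0.433 ± 0.0921 in the same sorts of Si8. It rose in goblet cells by 2.57 ± 0.37 log2 units in Si8 (edgeR adjusted p = 6.58e-06). In DC the rise of 0.65 ± 0.26 (edgeR adjusted p = 0.0444) was lost in 10 of 13 alternative settings.

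Car11, a member of the family without enzyme activity, was higher in DC than in Si8 by 3.17 ± 0.57 log2 units in other cells and 2.56 ± 0.46 in goblet cells (edgeR adjusted p = 5.91e-05 and 7.75e-05), at no more than 0.614 CPM on average. Car15, a lipid-anchored enzyme that shares 1253 exon bases with Gm20518 and is therefore uncertain, was not called in any of the 5 tests (edgeR adjusted p from 0.0614 to 0.771).

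The transporters that use bicarbonate and protons fell in goblet cells in most cases, with exceptions. Of 11 anion and bicarbonate transporters 9 were tested: in DC goblet cells 5 were lower and 2 higher (median log2 fold change −0.72), and in Si8 6 were lower and 1 higher (median −0.81). All 7 proton and acid transporters were lower in DC goblet cells (median −1.96), and 5 of the 7 in Si8 (median −2.17). The median over all tested genes was 0.03 in both regions. Of all tested genes, 27.9% were lower and 27.8% higher in DC goblet cells, and 31.8% lower and 33.1% higher in Si8 goblet cells. Slc26a3, the chloride-bicarbonate exchanger of the colon surface, and Slc9a3, the apical sodium-proton exchanger, are also surface colonocyte markers above.

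In DC, Slc9a3 and Slc26a3 fell, with log2 fold changes of −5.98 ± 0.19 and −5.22 ± 0.16 (edgeR adjusted p = 8.61e-15 and 3.01e-15), changes of the size of that of Car4. Best2, a bicarbonate-permeable anion channel of colon goblet cells, rose by 8.44 ± 0.20 (edgeR adjusted p = 7.63e-17), from 0.604 ± 0.291 to 212 ± 43.7 CPM (SD, n = 4). In Si8 Best2 stayed under 0.1 CPM on average in both sorts. Slc4a7, a sodium-bicarbonate cotransporter and with Best2 the other gene of the list called higher in DC, rose by 1.68 ± 0.10 in DC and 1.007 ± 0.10 in Si8 (edgeR adjusted p = 1.8e-11 and 2.72e-08) and was named after its values were seen.

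In Si8 the largest falls in goblet cells were those of Slc9a3 (−3.18 ± 0.16), Slc26a6, a chloride-bicarbonate exchanger of the small intestine (−3.12 ± 0.14), and Slc5a8, a carboxylate transporter (−2.84 ± 0.14), with edgeR adjusted p = 4.53e-12, 1.18e-12 and 2.65e-12. Between regions, 8 of 9 tested anion and bicarbonate transporters were called in other cells, 4 higher and 4 lower in DC (median 0.14, all tested genes 0.00), and 7 in goblet cells, 3 higher and 4 lower (median −0.10, all tested genes −0.02). Of the proton and acid transporters 4 were higher and 2 lower in other cells (median 0.71), and 2 higher and 4 lower in goblet cells (median −0.95). Among all tested genes 66.9% were called between the regions' other cells and 62.1% between their goblet cells. Atp12a, the colonic proton pump, averaged 788 ± 76.3 CPM in DC other cells and 273 ± 49.6 CPM in DC goblet cells and under 0.1 CPM in both Si8 sorts, a regional pattern like that of Car1 and Car2. Slc26a6 ran the opposite way, under 3 CPM in both DC sorts against 477 and 54.8 CPM in the Si8 sorts.

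Slc4a5, a further bicarbonate cotransporter, was lower in DC by −4.60 ± 0.38 log2 units in other cells and −4.79 ± 0.49 in goblet cells (edgeR adjusted p = 2.15e-09 and 6.19e-08). The goblet cell difference itself differed between regions for 5 of the 9 anion and bicarbonate transporters (3 above and 2 below 0, median 0.05). It did so for 4 of the 7 proton and acid transporters (1 above and 3 below, median −1.25). Over all tested genes the median was −0.03, and 32.1% were called. The goblet cell difference varied most between regions for Best2 (7.96 ± 1.31), Slc26a6 (3.68 ± 0.27) and Slc26a3 (−3.45 ± 0.20), with edgeR adjusted p = 9.48e-05, 6.53e-09 and 1.43e-10. The value for Slc26a3 was of the same sign and size as that of Car4.

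**Figure D5:**
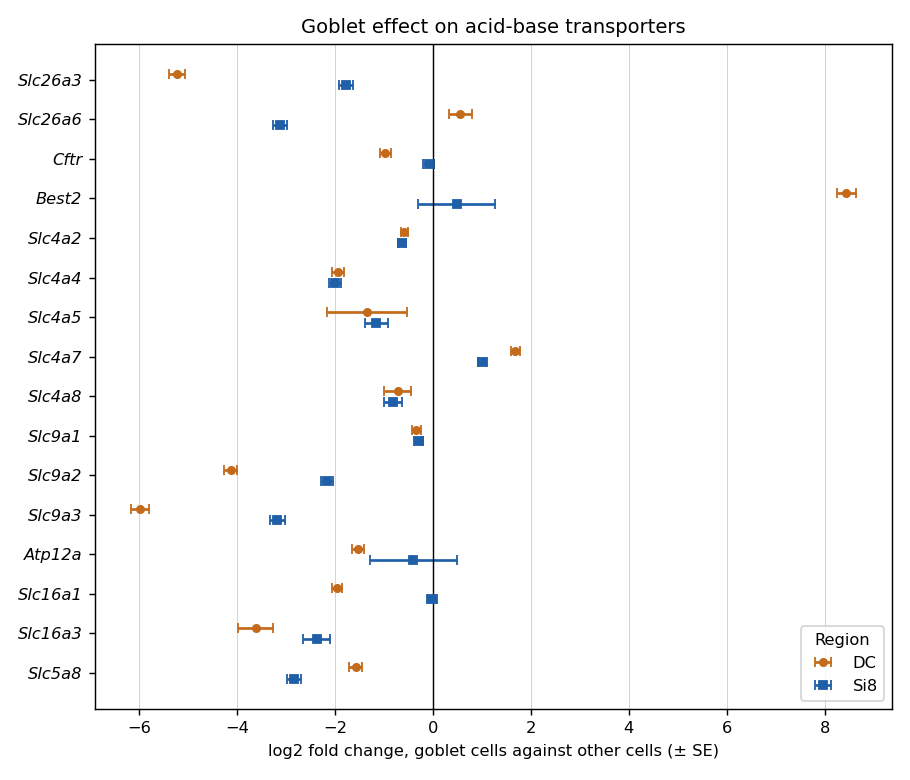
Log2 fold change of goblet cells against other cells, with standard errors, for the 16 tested transporters of bicarbonate, anions, protons and acids, with DC as circles and Si8 as squares. Slc9a3 (−5.98 in DC) and Slc26a3 (−5.22 in DC) lie farthest to the left, Slc4a7 lies above 0 in both regions, and Best2 lies alone at the right for DC (8.44).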

How the data were processed

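Raw RNA-seq counts per gene symbol were taken from the 2 tables the authors deposited, for DC and Si8. The processing notes of the submitters name FastQC 0.11.2, STAR 2.4.0f, HTSeq 0.6.1p1, DESeq2 1.14 and the build mm10, and the strand setting of the counting is not given in the sources used here. The 16 columns of normalized values were not used. Of 46882 rows, 4 were left out for a repeated symbol. The pairs of libraries within a group differed beyond sampling noise (chi-square over degrees of freedom at least 4.22), so no library was taken as a copy of another.

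All 16 libraries were fitted together with edgeR 4.0.16 in R 4.3.3 (TMM, filterByExpr, robust quasi-likelihood test, Benjamini-Hochberg adjustment over 16001 genes, threshold 0.05, common biological coefficient of variation 0.128), with 1 coefficient per group and 5 contrasts. The steps were tested on simulated data for the comparison of the DC sorts (15574 genes): 75.5% of 2-fold and 96% of 4-fold changes were recovered, and 7.14% of calls were false. Only 200 genes were changed there, in DC goblet cells, and all other genes had the same mean in every group. The simulation thus does not cover a comparison in which 55.7% of tested genes were called, as between the DC sorts here. CPM used TMM-scaled totals, and CPM per kb used merged exon lengths of GENCODE M21. Intervals and ratios on few counts cover counting error only.

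The members and gene lists were chosen with earlier results of these data known. Named were the 9 members, 7 further carbonic anhydrases, the 3 transporters with the largest absolute log2 fold change per contrast, hypoxia targets as counts, the 3 genes most correlated with each tested member, and called genes within 500 kb of a run of members. Marker lists for stem cells, lymphocytes and stromal cells were computed too: in DC other, DC goblet, Si8 other and Si8 goblet cells they summed to 105, 90.2, 737 and 876 CPM (stem), 5.79, 1.70, 192 and 12.0 CPM (lymphocyte) and 3.85, 0.328, 0.737 and 0.283 CPM (stromal). Alternatives were DESeq2 1.42.0, RLE factors, no filter, only the groups compared, no mitochondrially encoded genes, other gene lengths, other totals, and each library left out. Protein sequences were not used here. Some results of the gene lists are not reported here.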

Additional observations from a re-analysis of the deposited data

Results flagged for a closer look

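For 7 members the goblet cell difference was not the same in DC as in Si8 by the test of the difference itself (edgeR, all 16 libraries, positive where the log2 fold change is higher in DC). The values were −3.36 for Car4, −1.92 for Car1, −1.05 for Car13, −1.002 for Car9, −0.89 for Car12, −0.69 for Car8 and 2.55 for Car2. The first 6 are below 0, and Car2 alone is above it.

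In 5 of 36 groups of 4 libraries 1 library stood apart from the other 3, where chance gives about 1 in 20 for continuous values. Car2 was lowest in the Si8 goblet library S2, with 0.2138 CPM. Car7 was lowest in the Si8 goblet library S4, with 0.2305 CPM. Car3 stood apart in DC other cells, where S12 held 0.3885 CPM, in Si8 other cells, where S3 held 0.02514 CPM from its only count, and in Si8 goblet cells, where S4 held 0 CPM. All 5 rest on fewer than 12 counts in the library. The rate of 1 in 20 does not hold for Car3 in Si8, where 1 count or its absence sets a library apart. The 5 flags were therefore not read as an excess.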

How the results depend on the processing

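Every member called in the 5 comparisons (7, 7, 6, 6 and 7 members) kept its direction and its call under each alternative. Counts of genes called stayed within 1.5 times of the reported ones, from 8258 to 9012 between the DC sorts and from 4722 to 5519 for the difference between regions. Changes of sign were limited to values that were not called: Car12 between the regions' other cells was −0.0212 with RLE factors and with DESeq2, −0.0167 without the filter and from −0.0387 to 0.0957 with single libraries left out. Car7 between the regions' goblet cells ranged from −0.0439 to 0.4044 with single libraries left out, and its difference between regions from −0.18 to 0.27. Members called numbered 7 to 8 between the DC sorts, 6 to 7 between other cells and 6 to 8 between goblet cells: Car3 was called between regions in each of the 9 and 10 alternatives in which it passed the filter. Car4 between goblet cells was called in 3 alternatives given above, Car3 between the DC sorts in 2 (of 9 in which it was tested, with 0.96 to 1.37), and Car5b in DC lost its call in 10, with 0.57 to 0.77 when single libraries were left out. The leading shares moved with the gene length: with the longest coding transcript, and without length scaling, Car1 in DC other cells took 42.2% and 38.1%, Car2 in DC goblet cells 69.5% and 71.4%, Car4 in Si8 other cells 71.4% and 55.5%, and Car8 in Si8 goblet cells 33.1% and 50.4%. The cause of the remaining changes was not tested. Of 108 group levels 10 moved by more than 1 SD, all under plain totals. Depth limits Car3 and Car7, and Car1 and Car2 in Si8 goblet cells, where a library held 5 to 11 counts. No paired analysis was possible because the groups share no replicate numbers in the labels.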
